A study of Caenorhabditis elegans with 8 samples.

Results

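The clec genes of Caenorhabditis elegans, named for a C-type lectin-like domain, were examined in RNA of dissected gonads from 3 genotypes. The members are the protein-coding genes whose symbol begins with clec- and that had 10 or more reads summed over the 8 libraries. Of the 240 clec genes in the files, 94 met that minimum, 108 had at least 1 read but too few, and 38 had none. The threshold ran through a dense stretch of low values, with clec-224 at 10 reads just inside it and 7 genes, clec-54 and clec-72 among them, at 9 reads just outside. Of 19983 protein-coding genes of any kind, 13539 had as many reads.

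The groups were wild type (wt, replicates 3, 4 and 5), the sin-3(syb2172) mutant (replicates 3, 4 and 5) and the hda-3(ok1991) mutant (replicates 4 and 5). SIN-3 is the scaffold of a co-repressor complex, and HDA-3 belongs to the class I histone deacetylases, which work in several such complexes. The study asked how each affects transcription in the germ line. Each library pooled 9 to 12 gonads of young adults, and the labels call the replicates independent. Dissected gonads hold somatic gonad and sperm beside mitotic and meiotic germ cells and oocytes, so a library is a mixture of cells.

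C-type lectins take their name from vertebrate proteins that bind sugars with the help of calcium, and many nematode members lack parts of that site. The nematode family is large, and many of its products carry a signal for secretion. Many clec genes are expressed in the intestine and rise or fall when worms feed on pathogens, and some are read-outs of the PMK-1 MAP kinase pathway of innate immunity. A few have been tied to other tissues. The products of clec-87 and clec-88 were also identified as chondroitin proteoglycans, proteins that carry chondroitin sugar chains.

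Reads counted on genes numbered 14550417 to 24389531 per library, of which nuclear ribosomal RNA took 41.8 to 79.0%. That left 5109782 reads (sin-3 replicate 3) to 13266433 reads (sin-3 replicate 5) on other genes, and the scaling factors spanned 0.424 to 2.30 between the same libraries. The gene sin-3 had 0, 2 and 1 reads in the sin-3 libraries against 606, 616 and 1274 in wt. The gene hda-3 was at 13.9 and 18.7 CPM (reads scaled to library size with TMM factors) in the hda-3 libraries against 28.1, 28.6 and 39.1 in wt. As a percentage of the reads outside ribosomal RNA genes it overlapped, at 0.00457 and 0.00577% against 0.00419 to 0.00718%, so transcript of hda-3 was present in the mutant and its lower level held on the CPM scale only. Germ line and oocyte markers summed to between 4624.5 and 20562.7 CPM in every library. Sperm markers summed to 349.3 and 289.2 CPM in hda-3, against 18.3 to 20.7 in wt and 12.6 to 19.5 in sin-3.

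The expression of the family in the gonad was concentrated in 3 genes. clec-87 (WBGene00007709; chromosome I, 10184462 to 10185520, WBcel235), clec-88 (WBGene00019606; chromosome II, 6365722 to 6367002) and clec-91 (WBGene00014117; chromosome I, 9126140 to 9127101) held 99.5% of the 2303342 reads on members. clec-87 alone held 81.2%. The other 91 members shared 10719 reads. Per kilobase of exon, clec-87 was the gene with rank 2 of 19983 protein-coding genes in wt, at 21257.2 ± 8612.9 CPM per kilobase (SD, n = 3). clec-91 had rank 53 and clec-88 rank 64, at 1952.8 ± 821.0 and 1529.0 ± 398.4 CPM per kilobase.

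The step down to the next gene was steep. clec-50, at place 4 of the family by the mean of the 3 group means, was at 0.354 ± 0.468 CPM per kilobase in wt and had rank 7486. It was followed by clec-73, clec-123, clec-79 and clec-63, whose means over the 3 groups spanned 1.86 to 3.23 CPM per kilobase and whose reads lay mainly in hda-3. Of the 3 abundant genes, clec-91 and clec-88 overlapped in wt per kilobase. Neighbours in the order from clec-50 to clec-63 overlapped in hda-3, where clec-50 was at 7.13 ± 5.80 and clec-63 at 4.15 ± 1.66 CPM per kilobase (n = 2). Coding length in place of exon length left 5 of the same 8 genes in the first 8 places. In wt the family therefore read as 3 transcripts of very high abundance and a long tail near the detection limit. The median member had 38.5 reads over all 8 libraries.

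The level of clec-87 was 29954.3, 15681.1 and 15585.4 CPM in wt replicates 3, 4 and 5, 19624.0, 7684.3 and 3514.0 CPM in sin-3, against 6706.6 and 6488.6 CPM in hda-3. Both hda-3 libraries lay below every wt library, while sin-3 replicate 3 lay within the wt range. The level of clec-88 was 2383.0, 1738.4 and 1438.0 CPM in wt, 1308.7, 1037.4 and 882.9 CPM in sin-3, against 911.7 and 684.9 CPM in hda-3. For this gene neither mutant overlapped wt. The level of clec-91 was 2471.1, 1281.2 and 1239.1 CPM in wt, 2431.2, 1110.8 and 569.8 CPM in sin-3, against 902.8 and 707.8 CPM in hda-3. Its hda-3 libraries were again lowest against wt, and its sin-3 libraries overlapped wt.

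None of these differences passed the test of edgeR over all genes. Against wt, the log2 fold changes in hda-3 were -1.63 (SE 0.94, adjusted p = 0.259) for clec-87, -1.21 (SE 0.47, adjusted p = 0.0994) for clec-88 and -1.05 (SE 0.64, adjusted p = 0.284) for clec-91. In sin-3 they were -0.99 (adjusted p = 0.455), -0.78 (adjusted p = 0.243) and -0.28 (adjusted p = 0.779). The clec-88 difference in hda-3 passed with DESeq2 (adjusted p = 0.00845), with voom (adjusted p = 0.0347), with only wt and hda-3 in the fit (adjusted p = 0.0266) and with no filter (adjusted p = 4.00e-04). It also passed when sin-3 replicate 5 was left out (adjusted p = 0.0383). clec-87 passed with only wt and hda-3 in the fit (adjusted p = 0.0251), and clec-91 with no filter (adjusted p = 0.0217). In sin-3 clec-88 passed with no filter (adjusted p = 0.0204). Summed germ line and oocyte markers were at 16937.2, 20562.7 and 11311.4 CPM in wt, 15171.6, 8546.5 and 4624.5 CPM in sin-3, against 6666.6 and 6483.4 CPM in hda-3. As a share of the reads outside ribosomal RNA these markers overlapped, at 2.196 and 2.004% in hda-3 and 2.078 to 3.606% in wt. Of the 10 markers in that list, 1 was lower in hda-3 by the test and none in sin-3, and their part in the clec values was not tested. In such mixed samples fewer cells of a type and less RNA per cell cannot be told apart.

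The size of the difference also hung on the scale. All members together summed to 34838.2, 18727.9 and 18282.3 CPM in wt, 23391.2, 9876.5 and 5002.3 CPM in sin-3, against 8624.2 and 7982.5 CPM in hda-3. On this scale the hda-3 mean was 0.347 of the wt mean. As a share of the reads outside ribosomal RNA genes, which needs no scaling factor, the ratio was 0.673. On that share clec-87 took 4.46, 2.75 and 2.86% of reads in wt, 3.97, 2.20 and 1.39% in sin-3, against 2.21 and 2.01% in hda-3, and the hda-3 libraries still lay below the wt libraries. For clec-88 and clec-91 the shares overlapped, at 0.264 to 0.355% and 0.225 to 0.368% in wt and 0.212 and 0.300% and 0.219 and 0.297% in hda-3.

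A ratio of reads within a library does not depend on scaling. clec-87 had 12.1, 12.2 and 12.6 reads for each clec-91 read in wt, 8.07, 6.92 and 6.17 in sin-3, against 7.43 and 9.17 in hda-3. All 5 mutant libraries were below all 3 wt libraries, with means of 12.3 ± 0.237 in wt (SD, n = 3), 7.05 ± 0.960 in sin-3 (n = 3) and 8.30 ± 1.23 in hda-3 (n = 2). The pair of genes was chosen after its values were seen, so no test is given. The ratio of clec-87 to clec-88 reads overlapped between the groups, at 9.02 to 12.6 in wt, 3.98 to 15 in sin-3 and 7.36 to 9.47 in hda-3. These 3 genes each overlap another coding gene, clec-87 with iars-2 and clec-91 with ZK858.8 on the opposite strand and clec-88 with ctsa-4.1 on its own strand.

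**Figure D1:**
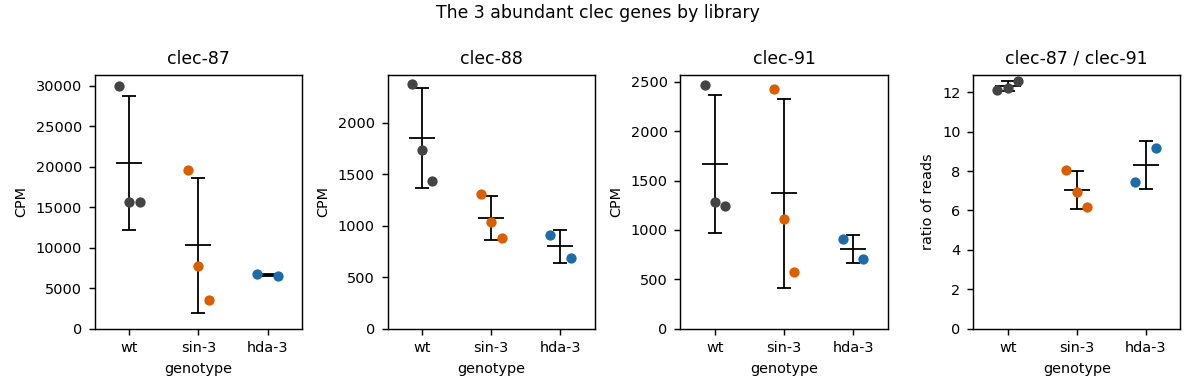
CPM of clec-87, clec-88 and clec-91 and the ratio of clec-87 to clec-91 reads, by genotype. Points are libraries, the bar is the mean and the whiskers are the SD (3 wt, 3 sin-3 and 2 hda-3 libraries); the ratio lies at 12.1 to 12.6 in wt and at 9.17 or lower in every mutant library.

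In the hda-3 gonads many of the rare clec genes were higher than in wt. The other 91 members summed to 29.8, 27.3 and 19.9 CPM in wt, 27.4, 43.99 and 35.7 CPM in sin-3, against 103.1 and 101.1 CPM in hda-3, so the hda-3 libraries stood above all others. Of the 94 members, 49 had enough reads to be tested, and 20 of these were higher in hda-3 at an edgeR adjusted p under 0.05. None was lower, and 27 passed at an unadjusted p under 0.05 in either direction. Among all 10302 genes tested, 13.5% were higher and 4.86% lower in hda-3 (18.4% in either direction). The median log2 fold change was 0.99 over the tested members and -0.02 over all tested genes. The count is not support for a change of the family, because 17 of the 49 tested members reached the level of the filter in fewer than 2 libraries outside hda-3, and 12 of the 20 called genes were among those 17. Of the other 32 tested members, 8 were called.

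**Figure D2:**
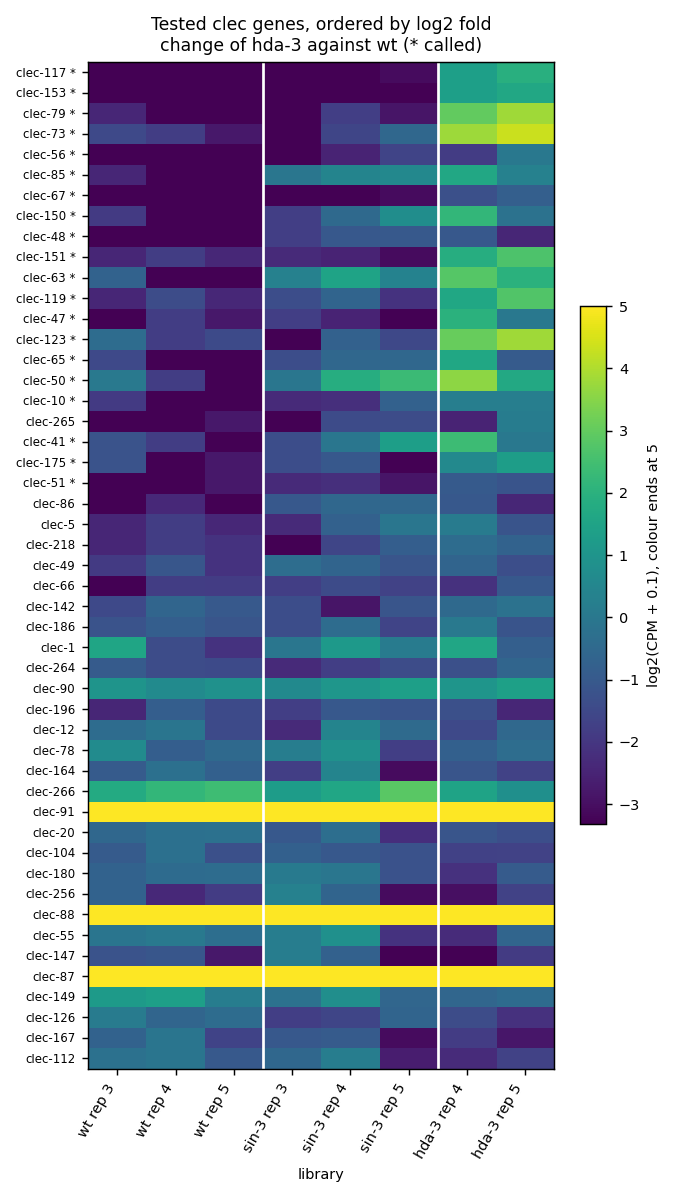
Levels of the 49 tested clec genes in the 8 libraries, as log2(CPM + 0.1), ordered by the log2 fold change of hda-3 against wt; an asterisk marks the 20 genes called there. clec-87, clec-88 and clec-91 exceed the colour range in every library, and the called genes at the top are near the lowest colour in the wt libraries.

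The 20 genes were sorted by whether the direct comparison of the mutants called them. In sin-3 against hda-3, 9 of the 49 tested members were lower in sin-3 and none was higher, with 13 at an unadjusted p under 0.05. Among all tested genes 12.7% were lower and 2.59% higher in that comparison (15.3% in either direction). These 9 genes were clec-47, clec-67, clec-73, clec-79, clec-117, clec-119, clec-123, clec-151 and clec-153, and all 9 were among the 20. Both comparisons use the same hda-3 libraries, so the overlap is given as a description. The remaining 11 genes, clec-10, clec-41, clec-48, clec-50, clec-51, clec-56, clec-63, clec-65, clec-85, clec-150 and clec-175, were higher in hda-3 than in wt and were not called between the mutants. All of these but clec-48 still had lower values in sin-3 than in hda-3. The lowest by edgeR were -3.23 for clec-175 (adjusted p = 0.0834), -2.27 for clec-51 (adjusted p = 0.121) and -1.98 for clec-10 (adjusted p = 0.178). The sorting rests on a threshold and does not show that sin-3 was like hda-3 for the 11 genes. All but clec-123 of the 9 genes, and 4 of the 11, passed the filter through hda-3 alone.

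The 9 genes called against both groups were near zero outside hda-3. They summed to 1.18, 1.03 and 0.531 CPM in wt, 0.581, 1.63 and 1.07 CPM in sin-3, against 45.5 and 69.1 CPM in hda-3. clec-73 (WBGene00021579; chromosome IV, 3954030 to 3956195) had 3, 2 and 1 reads in wt, 0, 6 and 31 in sin-3, against 525 and 472 in hda-3. Its level in hda-3 was 121.1 times that in wt on pooled reads, with a 95% interval of 55.4 to 330.7 that covers counting error alone. The log2 fold change was 6.87 (SE 0.77, adjusted p = 1.03e-04) against wt, and sin-3 was lower than hda-3 by -5.57 (SE 0.66, adjusted p = 1.84e-04).

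clec-79 (WBGene00018548; chromosome IV, 3973349 to 3975721) had 1, 0 and 0 reads in wt, 0, 5 and 2 in sin-3, against 309 and 322 in hda-3. With a single wt read the pooled ratio of 459.7 has a wide interval, 82.2 to 18187.3. The log2 fold change was 8.62 (SE 0.92, adjusted p = 8.06e-05) against wt and -6.95 (SE 0.74, adjusted p = 1.34e-04) for sin-3 against hda-3. Both hda-3 libraries stood above all 6 others for clec-73 and clec-79 alike. clec-123 (WBGene00021288; chromosome II, 3114234 to 3116762) was less extreme, with 8, 2 and 6 reads in wt, 0, 13 and 13 in sin-3, against 319 and 327 in hda-3. Its log2 fold change was 4.91 (SE 0.69, adjusted p = 3.49e-04) against wt.

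The genes clec-151 (WBGene00008659; chromosome III, 4628465 to 4631132) and clec-153 (WBGene00008660; chromosome III, 4635247 to 4637534) lie side by side on the same strand. clec-151 had 1, 2 and 2 reads in wt, 1, 2 and 1 in sin-3, against 138 and 145 in hda-3, with a log2 fold change of 5.37 (SE 0.67, adjusted p = 1.76e-04) against wt. clec-153 had no read in any wt or sin-3 library and 96 and 71 in hda-3. Set against a floor of 3 reads over the group, it was at least 40.6-fold higher in hda-3 than in wt (edgeR adjusted p = 0.00110), and at least 79.5-fold lower in sin-3 than in hda-3 (adjusted p = 7.33e-04). Both genes lie within the span of pfas-1, which runs on the opposite strand, so reads of pfas-1 cannot be told apart from theirs where the counting ignored strand.

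clec-117 (WBGene00015193; chromosome II, 296227 to 297011) had no wt read, 0, 0 and 1 reads in sin-3, against 96 and 86 in hda-3. It was at least 44.2-fold higher in hda-3 than in wt (adjusted p = 2.96e-04). The gene clec-119 (WBGene00018575; chromosome II, 1255937 to 1258375) had 1, 3 and 2 reads in wt, 3, 14 and 7 in sin-3, against 115 and 155 in hda-3, for a log2 fold change of 5.07 (SE 0.77, adjusted p = 5.74e-04). Both were at low or no reads in the 6 other libraries. The last pair was less stable. clec-47 (WBGene00011668; chromosome V, 15175759 to 15176324) had 0, 2 and 1 reads in wt, 2, 2 and 0 in sin-3, against 150 and 21 in hda-3, so hda-3 replicate 4 carried most of its reads. Its log2 fold change of 5.03 (adjusted p = 0.00922) was no longer called without wt replicate 5 or without hda-3 replicate 4, where it was 3.60, and it was 6.19 without wt replicate 4. clec-67 (WBGene00018971; chromosome IV, 3922165 to 3925039), known from pathogen studies as a gene that needs PMK-1, had no wt read, 0, 0 and 1 in sin-3, against 12 and 11 in hda-3, at least 5.59-fold higher than wt (adjusted p = 0.0210). Its call was lost without wt replicate 3 or wt replicate 5, and 6 of the 8 fits that left out a library kept the gene in the test.

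Leaving out each library in turn, 7 of the 9 genes kept the call in all 8 fits of both comparisons, clec-47 and clec-67 being the exceptions. Single wt libraries set the fold where wt reads were few. Without wt replicate 3, which held the 1 wt read of clec-79, that gene's log2 fold change was 11.16, and without wt replicate 5 it was 7.79. For clec-73 it fell to 6.22 without wt replicate 5, for clec-123 it was 5.53 without wt replicate 3, and for clec-119 it was 5.71 without wt replicate 4 and 4.37 without hda-3 replicate 5. In sin-3 against hda-3, single sin-3 libraries did the same. Without sin-3 replicate 4 the value was -8.37 for clec-79, -6.03 for clec-123 and -4.83 for clec-119. Without sin-3 replicate 5 it was -6.83 for clec-73, -5.90 for clec-151 and -9.07 for clec-117. clec-119 was at -3.25 without hda-3 replicate 5. clec-47 was at -6.19 without sin-3 replicate 3 and -3.77 without hda-3 replicate 4, where its call was lost, and clec-67 lost its call in that comparison without sin-3 replicate 4.

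**Figure D3:**
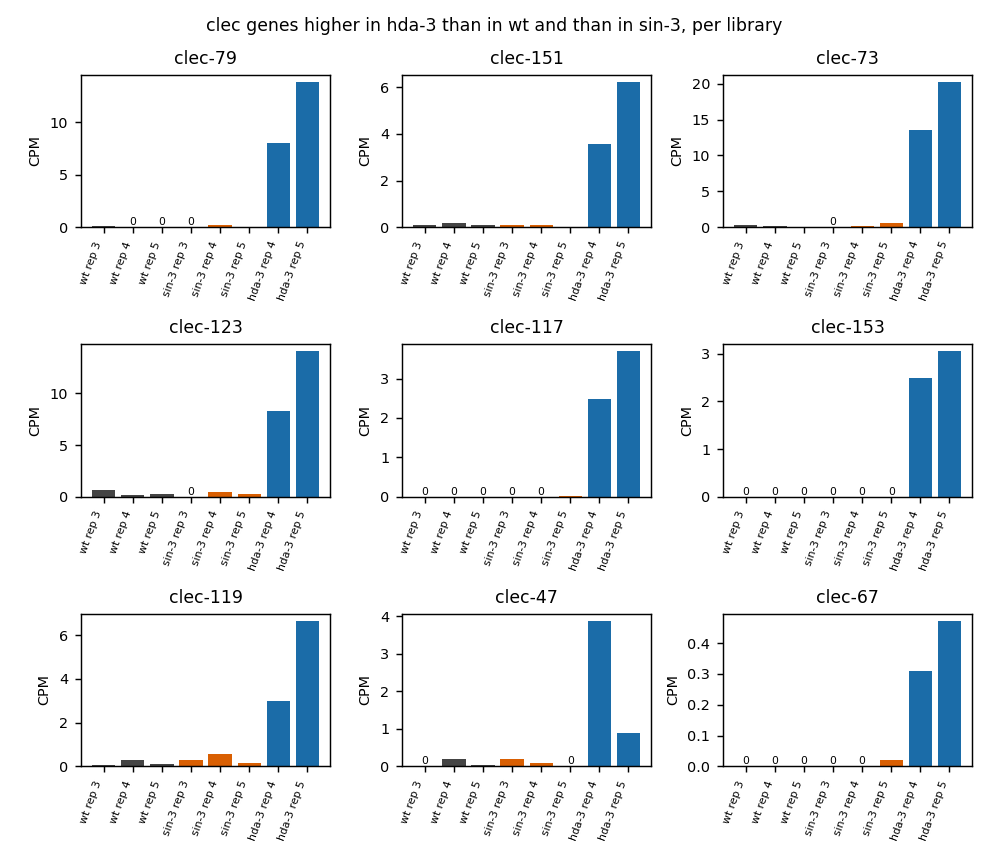
CPM per library of the 9 clec genes that were higher in hda-3 than in wt and than in sin-3; each panel has its own axis from 0, and a 0 marks a library with no read. Bars of hda-3 replicates 4 and 5 stand above all 6 wt and sin-3 libraries in every panel, and clec-47 is the gene with replicate 4 above replicate 5.

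The 11 other genes also rose in hda-3, from 2.79, 0.373 and 0.0885 summed CPM in wt to 37.8 and 15.1 CPM. In sin-3 they summed to 4.35, 10.7 and 13.4 CPM, above every wt library and below both hda-3 libraries, in a set sorted by the absence of a call between the mutants. clec-85 (WBGene00021872; chromosome IV, 2850886 to 2855456), another gene known to need PMK-1 during infection, had 1, 0 and 0 reads in wt, 9, 32 and 72 in sin-3, against 119 and 27 in hda-3. It was 106.4 times higher in hda-3 than in wt on pooled reads (95% interval 18.8 to 4230), with a log2 fold change of 6.26 (SE 0.97, adjusted p = 6.60e-04). clec-63 (WBGene00009394; chromosome II, 12895638 to 12897446) had 6, 0 and 0 reads in wt, 12, 70 and 62 in sin-3, against 267 and 90 in hda-3, for a log2 fold change of 5.18 (SE 0.98, adjusted p = 0.00267). These 2 genes kept the hda-3 call in all 8 fits that left out a library. Both hung on wt replicate 3 for the size: without it the log2 fold change was 8.81 for clec-85 and 10.15 for clec-63, against 4.34 for clec-63 without wt replicate 5 and 5.37 for clec-85 without hda-3 replicate 4.

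The remaining 9 of the 11 lost the call in at least 1 fit that left out a library. clec-50 (WBGene00012253; chromosome V, 19752399 to 19755368) had 11, 2 and 0 reads in wt, 9, 91 and 263 in sin-3, against 456 and 74 in hda-3, for a log2 fold change of 4.51 (adjusted p = 0.0221) that was not called without wt replicate 4 or hda-3 replicate 4. clec-41 (WBGene00007153; chromosome V, 13134903 to 13138101), which has been studied in defence against Bacillus thuringiensis, had 4, 2 and 0 reads in wt, 3, 22 and 128 in sin-3, against 198 and 21 in hda-3. Its log2 fold change was 4.32 (adjusted p = 0.0238), and 2.56 without hda-3 replicate 4, where it was not called. The clec-41 call was also lost without wt replicate 4 or wt replicate 5. In both genes 1 hda-3 library carried most of the reads and sin-3 replicate 5 stood above the other sin-3 libraries.

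The same imbalance was seen in clec-150, with 171 and 18 reads in hda-3 (log2 fold change 5.67, adjusted p = 0.00815), and in clec-65, with 116 and 10 reads (4.51, adjusted p = 0.0190). Without hda-3 replicate 4 their log2 fold changes were 3.90 and 2.48, and neither was called. Both calls were also lost without wt replicate 5, and that of clec-65 without wt replicate 4. clec-10 (4.38, adjusted p = 0.0202), clec-175 (3.95, adjusted p = 0.0470) and clec-51 (3.87, adjusted p = 0.0337) had 25 to 56 reads, or for clec-51 16 and 8, in each hda-3 library. Each of these 3 calls was lost without wt replicate 4, wt replicate 5, hda-3 replicate 4 or hda-3 replicate 5, and for clec-51 also without wt replicate 3. Without wt replicate 3 the values were larger, at 6.77 for clec-50, 5.44 for clec-41, 9.11 for clec-150, 8.51 for clec-65, 7.83 for clec-10 and 5.81 for clec-175, while clec-51 was at 6.25 without wt replicate 5. clec-48 and clec-56 had no wt read, and were at least 4.13-fold and at least 6.80-fold higher in hda-3 (adjusted p = 0.0456 and 0.0353). The clec-48 call was lost without any 1 of the wt libraries, hda-3 replicate 4 or sin-3 replicate 4, and the clec-56 call without any 1 of the wt libraries or hda-3 replicate 5.

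The 2 hda-3 libraries differed in the level of most of these genes. Among the 9 genes, the CPM in replicate 4 was 0.447 to 4.30 times that in replicate 5, with a median of 0.657, and clec-47 was the 1 gene above 1. Among the 11 genes it was 0.201 to 6.99 times, with a median of 2.66, and 9 of 11 were above 1, clec-56 and clec-175 being the exceptions. The median ratio was 1.93 for intestine markers (0.586 to 33.3 over 17 genes), 3.71 for body muscle (10 genes), 3.62 for pharynx (3 genes), 2.85 for epidermis (2 genes), 1.22 for neuron (3 genes), 1.20 for somatic gonad (10 genes), 1.15 for sperm (11 genes) and 1.02 for germ line and oocyte markers (10 genes). It was 3.72 for galectins (11 genes), 4.03 for saposin-like genes (10 genes), 1.81 for immune signalling genes (20 genes) and 1.71 for lysozymes (8 genes). The ratio rests on 1 pair of libraries. It is not independent of the sorting, because the comparison that sorted the genes used these libraries and a gene with unequal replicates is less readily called.

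Sums of intestine and sperm markers were also higher in hda-3 than in wt, while other lists varied. Intestine markers summed to 46.1, 27.6 and 7.97 CPM in wt, 34.6, 108.1 and 86.8 CPM in sin-3, against 291.4 and 168.4 CPM in hda-3. Yolk genes weighed heavily in that sum, with vit-2 at 87.7 and 45.3 CPM and vit-6 at 69.8 and 53.8 CPM in hda-3. Other intestine markers were high in hda-3 replicate 4 alone. There act-5 was at 31.3 CPM, ifc-2 at 9.31 and ifb-2 at 4.29. In hda-3 replicate 5 act-5 (1.85 CPM) and ifc-2 (0.558) lay within the wt range and ifb-2 (0.129) below it. Both hda-3 libraries lay below wt for ges-1. Of the 21 intestine markers, 16 were tested, and 10 of these were higher in hda-3 and 1 in sin-3 than in wt. Sperm markers, given above, were higher in hda-3 for 6 of 10 tested, and 8 of 10 were lower in sin-3 than in hda-3. Body muscle markers summed to 372.0 and 86.8 CPM in hda-3, 99.8 to 191.0 CPM in wt and 170.9 to 278.3 CPM in sin-3. Epidermis markers summed to 48.4 to 63.4 CPM in wt and 74.5 and 107.0 CPM in hda-3, and none of the 2 tested was called. Neuron markers, nearly all snb-1, summed to 23.6 and 28.5 CPM in hda-3, 22.6 to 31.0 CPM in sin-3 and 33.0 to 44.3 CPM in wt, and none of the 3 tested was called in hda-3. As a share of the reads outside ribosomal RNA they overlapped, at 0.00730 and 0.00937% in hda-3 and 0.00607 to 0.00777% in wt. Somatic gonad markers summed to 78.2 and 93.5 CPM in hda-3 and 127.8 to 240.9 CPM in wt, with 3 of the 10 tested called lower and nmy-1 higher. Their shares also overlapped, at 0.0258 and 0.0289% against 0.0191 to 0.0422%. On that scale the 9 genes (0.0150 and 0.0214% in hda-3, at most 4.68e-04% elsewhere), sperm markers (0.0894 and 0.115%, at most 0.00558%) and intestine markers (0.0521 and 0.0960%, at most 0.0343%) still stood above every other library in hda-3. The 11 genes did not, at 0.0125 and 0.00467% in hda-3 and 0.00528% in sin-3 replicate 5, although both values lay above every wt library. Coelomocyte markers stayed at 1.13 CPM or lower and pharynx markers at 3.54 CPM or lower in every library. The part of other cells in the clec values was not tested.

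**Figure D4:**
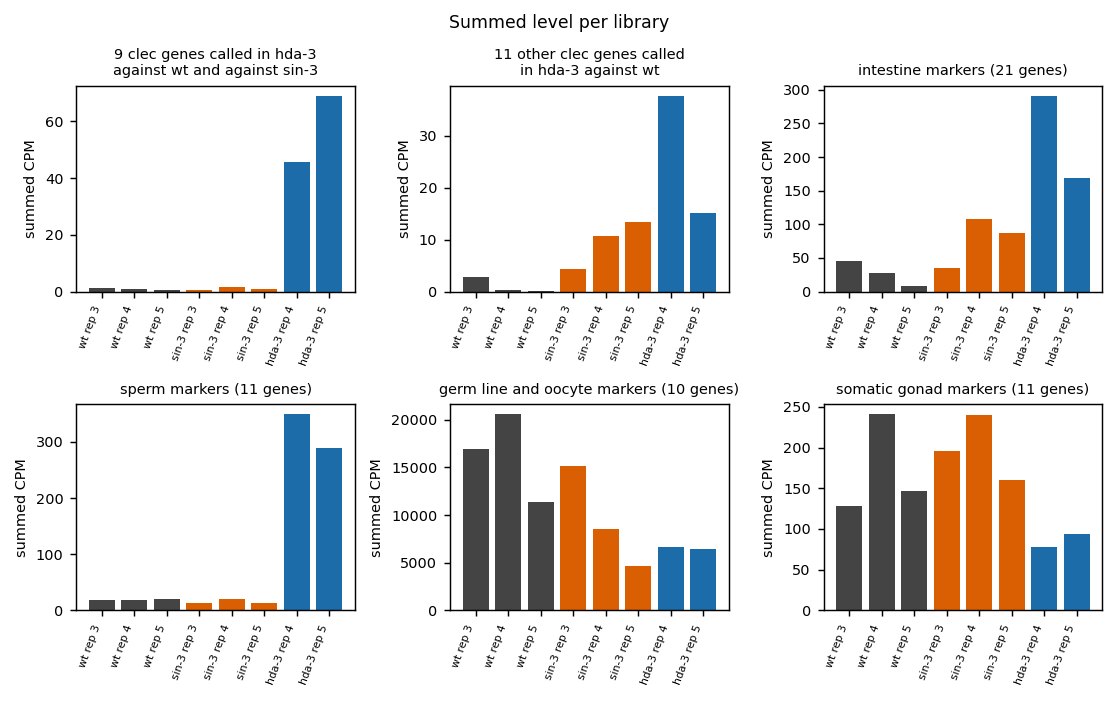
Summed CPM per library of the 9 clec genes called in hda-3 against both other genotypes, of the 11 other clec genes called in hda-3 against wt, and of 4 marker lists; each panel has its own axis from 0. The sperm and intestine sums are highest in the 2 hda-3 libraries; that the 9 genes are low in sin-3 and the 11 less so follows from how the 2 sets were sorted.

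In the sin-3 gonads few clec genes were higher than in wt. edgeR called 4 of the 49 tested members higher and none lower, against 2.68% and 4.92% of all tested genes (7.6% in either direction), and 10 members passed at an unadjusted p under 0.05. The median log2 fold change was 0.34 over the tested members and 0.12 over all tested genes. clec-85 had the clearest difference, with a log2 fold change of 5.42 (SE 0.97, adjusted p = 0.00903). Every sin-3 library, at 0.871, 1.24 and 1.38 CPM, was above every wt library, at 0.0845, 0 and 0 CPM. Without wt replicate 5 the log2 fold change was 4.60 and the adjusted p 0.0597, and without wt replicate 3 the log2 fold change was 7.97.

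The other 3 calls were marginal. clec-63 had a log2 fold change of 3.52 (SE 0.96, adjusted p = 0.0473), which was 8.49 without wt replicate 3 and 2.68 without wt replicate 5. clec-86 (WBGene00016912; chromosome X, 7139875 to 7140566) had 0, 1 and 0 reads in wt, 4, 15 and 31 in sin-3, against 15 and 2 in hda-3, for a log2 fold change of 4.25 (SE 1.16, adjusted p = 0.0473), with 6.83 without wt replicate 4 and 3.44 without wt replicate 5. It lies opposite to alh-10. clec-48 (WBGene00007565; chromosome V, 18158026 to 18159614) had no wt read and 2, 10 and 21 in sin-3, at least 5.62-fold higher (adjusted p = 0.0485). clec-63 kept its call in 2, and clec-86 and clec-48 each in 1, of the 8 fits that left out a library. Over the family the count was 2 without wt replicate 3, 0 without wt replicate 5, 7 without sin-3 replicate 3 and 1 without any other 1 library.

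The hda-3 count moved as well, to 12 without wt replicate 4, 10 without wt replicate 5 and 11 without hda-3 replicate 4. Of the 4 genes higher in sin-3, clec-48, clec-63 and clec-85 were also called in hda-3. Both comparisons share the wt libraries, in which these 3 genes had 7, 0 and 0 reads together. Between the mutants, the log2 difference of sin-3 from hda-3 was -0.85 (SE 0.61, adjusted p = 0.458) for clec-85, -1.66 (SE 0.75, adjusted p = 0.192) for clec-63 and 0.47 (SE 0.86, adjusted p = 0.813) for clec-48. The clec-85 value was -0.01 without hda-3 replicate 4 and -1.40 without hda-3 replicate 5, and that of clec-48 was 1.89 and -0.20 in the same fits. clec-63 passed in that comparison with voom and with no filter. These values do not show that the mutants act alike on them. The genes clec-150 and clec-56 had large but uncalled differences in sin-3 against wt, with 4.09 (adjusted p = 0.0725) for clec-150 and at least 2.38-fold (adjusted p = 0.181) for clec-56. With wt replicate 3 left out clec-150 was at 7.52, and with sin-3 replicate 5 left out at 3.16. It was called with DESeq2, with no filter and when sin-3 replicate 3 was left out.

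**Figure D5:**
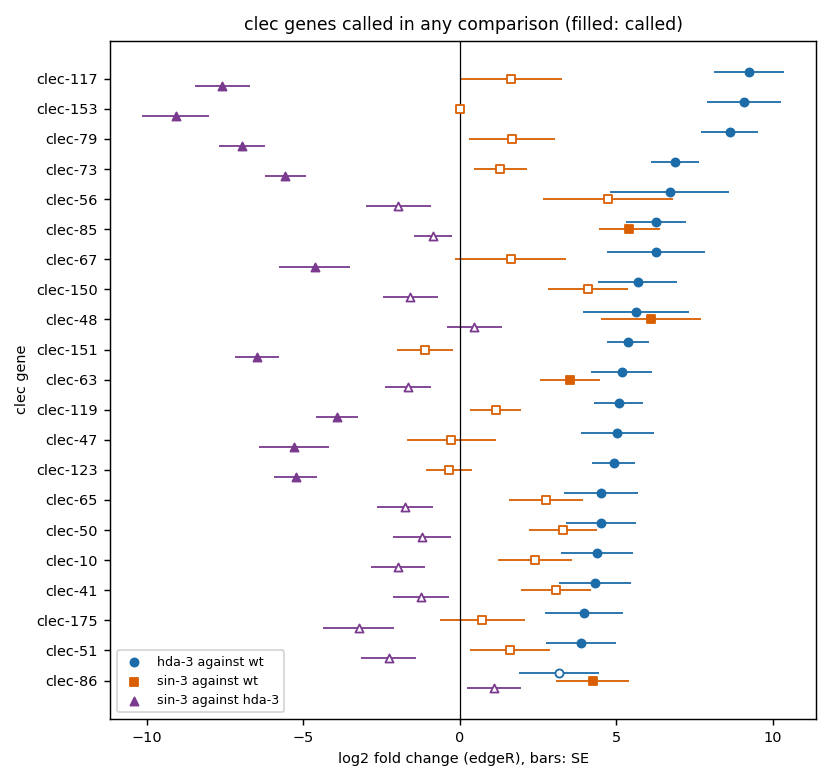
edgeR log2 fold changes with their SE for the 21 clec genes called in any of the 3 comparisons; filled symbols passed at an adjusted p under 0.05. Fitted values of genes with no read in a group, such as clec-117 and clec-153, are not bounds, and no SE could be fitted for clec-153 in sin-3 against wt; the 9 genes with a filled triangle are lower in sin-3 than in hda-3.

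Some tested members pointed the other way without passing the test. In hda-3 against wt, clec-112 (log2 fold change -2.05, adjusted p = 0.215), clec-167 (-2.01, adjusted p = 0.261), clec-126 (-1.78, adjusted p = 0.132) and clec-149 (-1.64, adjusted p = 0.0987) had the lowest values, and for all 4 both hda-3 libraries lay below all wt libraries. Groups did not overlap for 13 of the 49 members in that direction, against 26.7% of all tested genes. In sin-3 against wt the lowest values were -1.12 for clec-151 (adjusted p = 0.448), -1.10 for clec-126 (adjusted p = 0.304) and -1.001 for clec-167 (adjusted p = 0.556). In sin-3 against hda-3 the highest were 2.56 for clec-147 (adjusted p = 0.418), 2.17 for clec-256 (adjusted p = 0.394), 1.79 for clec-112 (adjusted p = 0.347) and 1.57 for clec-55 (adjusted p = 0.385). In sin-3 against hda-3 these values hung on single hda-3 libraries, with clec-147 at 1.38 without replicate 4 and 6.53 without replicate 5, clec-256 at 1.21 and 4.06, and clec-55 at 3.10 without replicate 5. clec-112 was called there without sin-3 replicate 5. The roles of these genes are not described in the sources used here.

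The 45 untested members had 10 to 40 reads each over the 8 libraries, with a median of 19. Together they held 70 to 89 reads per wt library, 74 to 225 per sin-3 library and 77 and 158 in hda-3. In CPM they summed to 3.94 to 6.53 in wt, 3.53 to 8.74 in sin-3, against 3.31 and 4.09 in hda-3, which overlap. The most read were clec-94, with 40 reads, of which 14 lay in sin-3 replicate 4, clec-205 and clec-29 with 37 each, and clec-169 and clec-127 with 34. A further gene with 34 reads, clec-182, had 20 of them in hda-3 replicate 4. These genes were not tested. On pooled reads, whose intervals cover counting error alone, 3 of the 45 had an interval above 1 and 7 below 1 in hda-3 against wt, and 4 had no wt read and a lower bound above 1. Among them clec-182 had a ratio of 4.37 (95% interval 1.502 to 17.3) and clec-103, chosen like clec-57 after its values were seen, 0.0429 (0.00103 to 0.274). clec-57 had 17 reads in hda-3 and none in wt, at least 4.13-fold higher.

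The genes called in hda-3 lay on chromosomes II, III, IV and V. Counts per chromosome are a description here, with no share of all tested genes beside them. Of the 20 genes higher in hda-3, 6 lay on chromosome II, 3 on III, 6 on IV and 5 on V, among 12, 5, 12 and 11 tested members there. None of the 6 tested members on chromosome I and none of the 3 on X was called in hda-3, although X carried clec-86, called in sin-3. A run of 12 clec genes on chromosome IV, between 3922165 and 4014235, held clec-67, clec-73 and clec-79. In that run clec-73 had 1040 reads over all libraries and clec-79 had 639, but clec-72 and clec-74, on either side of clec-73, had 9 and 8, and clec-76, next to clec-79, had 1. clec-78, in the same run, had 138 reads that were spread over all genotypes, at 5 to 18 per library in wt, 10 to 45 in sin-3, against 19 and 16 in hda-3.

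Beyond the family, the genes next to the 20 called members were mostly silent. Of 40 such neighbour positions, 23 held a gene with fewer than 10 reads and 13 a tested gene. Of these 13, 7 were called higher in hda-3, against 13.5% of all tested genes, clec-151 and clec-153 being each other's neighbours. The count is not support for a change around the members. Genes such as B0432.11, Y54G2A.49 and clec-153 had no read outside hda-3 and could be tested through hda-3 alone. Among the called neighbours outside the family, T09F5.10 beside clec-47 had 1, 0 and 2 reads in wt, 1, 7 and 11 in sin-3, against 302 and 169 in hda-3 (log2 fold change 6.75, adjusted p = 6.42e-05). B0432.11 beside clec-117 had 30 and 26 reads in hda-3 and none elsewhere. Beside clec-51, B0218.7 had 2237 and 1018 reads in hda-3 and 1 to 76 elsewhere, and beside clec-48, C14A6.13 had 441 and 164 reads in hda-3 and 0 to 35 elsewhere. Y54G2A.49 overlaps clec-85 on the opposite strand and had 12 and 21 reads in hda-3 and none elsewhere, and Y54G2A.40 overlaps it on the same strand, with no read in hda-3, 4, 2 and 1 in wt, against 2, 8 and 1 in sin-3. Reads of clec-85 cannot be told apart from theirs where the genes overlap. The positions were fixed by the called members, and these 5 genes are named because they, of 9 tested neighbours outside the family, were called higher. The other 4 (B0432.1, dnsn-1, faah-1 and lin-42) were not called. No role is given for the 5 in the sources used here.

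Other genes of innate immunity were examined beside the family. Of 21 signalling and transcription factor genes, 18 were tested. In each mutant against wt, 2 of the 18 were called higher and none lower. Among all tested genes 13.5% were called higher in hda-3 and 2.68% in sin-3. The gene pmk-1 itself was not called in either mutant. The transcription factor genes pqm-1 and elt-7, the latter an intestinal GATA factor, were higher in hda-3 than in wt by 4.50 (SE 1.00, adjusted p = 0.00743) and 2.59 (SE 0.73, adjusted p = 0.0287) on the log2 scale. elt-7 is also among the intestine markers. pqm-1 had 1, 2 and 0 reads in wt, 0, 4 and 5 in sin-3, against 90 and 27 in hda-3. In sin-3, dkf-2, a protein kinase D gene, was higher than in wt by 0.93 (SE 0.19, adjusted p = 0.0167) and sek-1, the MAP kinase kinase gene upstream of PMK-1, by 1.80 (SE 0.49, adjusted p = 0.0462). dkf-2 was also higher in sin-3 than in hda-3, by 1.04 (adjusted p = 0.00499), while pqm-1 and elt-7 were lower, by -4.09 (adjusted p = 0.00637) and -2.35 (adjusted p = 0.0379). When hda-3 replicate 4 was left out, no call of pqm-1 or elt-7 held, and elt-7 was at 1.12 against wt and -0.92 between the mutants. The elt-7 call against wt was also lost without any 1 of the wt libraries, and the dkf-2 call in sin-3 without wt replicate 3 or wt replicate 5.

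Among effector genes the lysozymes followed the rare clec genes most in number. Of 16 lysozyme genes, 7 were tested, and lys-1, lys-2, lys-4, lys-7, lys-8 and ilys-5 were higher in hda-3 than in wt, by 3.81 (lys-2, adjusted p = 0.0115) to 4.98 (lys-7, adjusted p = 0.00551). lys-7 was the 1 lysozyme gene called in sin-3, at 5.15 (SE 1.02, adjusted p = 0.0145). Its reads were 2, 0 and 0 in wt, 22, 34 and 107 in sin-3, against 100 and 14 in hda-3. ilys-5 had 33, 9 and 23 reads in wt, 33, 365 and 894 in sin-3, against 1519 and 279 in hda-3, with a value of 2.94 in sin-3 that was not called (adjusted p = 0.0538). The lys-7 call in hda-3 was lost without hda-3 replicate 4 (3.56), its call in sin-3 and the lys-2 call in hda-3 without wt replicate 4 or wt replicate 5. Leaving out wt replicate 3 raised lys-7 to 8.41 in hda-3 and 8.58 in sin-3, and lys-8 to 8.30 in hda-3. Of the tested lysozymes, lys-1 was lower in sin-3 than in hda-3 (-2.53, adjusted p = 0.0479).

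The other lists were thinner. Of 31 saposin-like genes 5 were tested, with spp-18 higher in hda-3 than in wt by 2.85 (adjusted p = 0.0242) and spp-10 higher in sin-3 than in hda-3 by 2.94 (adjusted p = 0.0162). Galectins, sugar-binding proteins of another fold, had 11 of 12 genes tested. lec-5 was higher in sin-3 (1.68, adjusted p = 0.0467) and lower in hda-3 (-2.49, adjusted p = 0.00995), a difference between the mutants of 4.18 (SE 0.61, adjusted p = 5.34e-04). lec-11 and lec-8 were higher in hda-3, by 3.80 (adjusted p = 0.0103) and 3.89 (adjusted p = 0.0459), but hda-3 replicate 4 carried most reads of both, with 400 against 23 in replicate 5 for lec-11 and 2390 against 104 for lec-8. Without replicate 4 neither was called, at 1.27 and 1.00. lec-11 was also lower in sin-3 than in hda-3, by -3.31 (adjusted p = 0.0147), and by -0.85 without hda-3 replicate 4, where it was not called. Of the 23 calls in the signalling, lysozyme, saposin-like and galectin lists, 5 held in all 8 fits that left out a library. These were lys-1, lys-4, lys-8 and ilys-5 in hda-3 against wt and lec-5 between the mutants. sek-1 in sin-3, lec-5 in sin-3 and lec-8 in hda-3 each held in 1 of the 8. One caenacin, cnc-8, and 1 thaumatin-like gene, thn-2, could be tested and neither was called, and no antibacterial factor gene could be tested.

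The authors' deposited table of hda-3 against wt calls 17 members higher and 2 lower, among 70 members listed, of which 50 have an adjusted p. Of the 12398 genes in that authors' deposited table, 14.8% are called in either direction. Of the 20 genes called by edgeR, 16 are among the calls of the authors' deposited table. It leaves out clec-48, clec-51, clec-56 and clec-67, and it adds clec-1. In the authors' deposited table clec-87 and clec-88 are lower in hda-3, with log2 fold changes of -1.07 (adjusted p = 4.56e-06) and -0.82 (adjusted p = 0.00613). The authors' deposited table of sin-3 against wt calls 3 members higher and 2 lower, with 2 of the 4 edgeR calls among them, where 27 members have an adjusted p and 8.50% of 13084 genes are called. There clec-87 is at -1.17 (adjusted p = 0.00501), clec-88 at -0.74 (adjusted p = 0.0224) and clec-150 at 4.31 (adjusted p = 0.0438). For clec-87 and clec-88 the call thus differed between the deposited tables and edgeR, while both gave lower values in each mutant.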

How the data were processed

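The authors deposited 1 file of whole-number read counts per gene for each library, not normalised, and 2 tables of their own comparisons with log2 fold changes, mean counts (signal), a test statistic (score), p-values and adjusted p-values, per the file headers. The submitters' processing notes name DESeq2 1.36.0, HTSeq 0.7.2, STAR 2.7.3a and fastp 0.20.1, with no roles. Strand setting and genome build were not given in the sources used here. Gene identifiers were matched to WBcel235, Ensembl release 115. Lines that name no gene held 5.05 to 8.33% of a library's total and were left out. The deposited files list reads with non-unique alignment on a line of their own, outside the gene counts, so clec genes in close copies are uncertain. Of the 94 members, 23 overlap another coding gene.

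All 8 libraries were fitted with edgeR 4.0.16 (R 4.3.3; robust quasi-likelihood test, TMM factors, filterByExpr with a minimum count of 10 and total of 15), with genotype as the term. P-values were adjusted over 10302 genes by Benjamini and Hochberg and called under 0.05. SE is the log2 fold change over the square root of F. CPM uses TMM library sizes that include ribosomal RNA. Pooled-read ratios have exact conditional binomial 95% intervals, and floors are 3 reads over a group. Intervals and floors cover counting error only. P-values set a group difference against the spread between these libraries, which was estimated over all groups together and moderated over genes. The model was checked on simulated counts, with folds set on genes well read in wt. That check does not cover genes with few or no wt reads, such as the rare clec genes. Alternatives used limma 3.58.1 (voom) and DESeq2 1.42.0. The members, gene lists and tests were chosen with earlier results of these data known. Named genes were those called (up to 20 by smallest adjusted p), the 8 most abundant per kilobase, the untested genes with most reads, the largest folds in each direction, and the called genes of the immune lists. Genes beyond that rule (clec-1, clec-54, clec-57, clec-72, clec-74, clec-76, clec-78, clec-103, clec-224 and the neighbours) were chosen after their values were seen or by position.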

Additional observations from a re-analysis of the deposited data

How the results depend on the processing

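Depth limits the family outside its 3 abundant genes, and 52 of 94 members had fewer than 50 reads. The number of members called in sin-3 against wt, 4 as reported, was 2 with TMM on autosomal genes, 8 with no filter, 2 with a filter of 5 reads in 2 libraries and 0 with only these 2 groups in the fit. In that last fit clec-63 was tested and not called, while clec-48, clec-85 and clec-86 were not tested. clec-85 was called in all 8 other settings that tested it. The number called was 0 to 7 when a library was left out. In hda-3 against wt the count of 20 was 10 to 21 when a library was left out. Fits without hda-3 replicate 4 or 5 assume that the lone hda-3 library varies like the other groups. In sin-3 against hda-3 the count of 9 was 7 to 12 over all alternatives. The replicate numbers were used as a block in 1 alternative, which called 1 member in sin-3 and 10 in hda-3 against wt. The numbers were not taken to pair the libraries, since same-numbered libraries deviated with correlations of -0.20 to 0.29 and 2 of 7 pairs were above 0.1. Of 8 libraries 3 correlated best with their own number.

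Uncalled values changed sign for clec-91 in sin-3 against wt, where leaving out a library gave -0.98 to 0.12 (0.12 with wt replicate 3 or sin-3 replicate 5 removed), and for clec-87 in sin-3 against hda-3, at -0.14 under the replicate block and -0.24 to 0.90 when a library was left out (-0.24 for sin-3 replicate 3). That of clec-48 in sin-3 against hda-3 was -0.20 to 1.89 when a library was left out (-0.20 for hda-3 replicate 5). The summed level of hda-3 over wt, 0.347, was 0.673 when counted per read on genes other than ribosomal RNA and 0.310 to 0.449 without 1 library. Coding length left 5 of the 8 highest members in place. Of the called single-gene values, 258 kept and 30 lost the call under other settings, and 200 kept and 59 lost it without 1 library. TMM on autosomal genes moved the median log2 fold change of all genes in hda-3 against wt from -0.02 to 0.17, and RLE factors to 0.12. The cause of these changes was not tested. A search of promoters for motifs was not run.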
